A study of Mus musculus with 9 samples.

Results

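Primary articular chondrocytes of the mouse, the cells that build and maintain the cartilage of joint surfaces, were compared after a bleomycin exposure and after its vehicle. The bleomycin group (3 libraries) had received bleomycin at 50 µg/mL for 24 h and then medium with DMSO for 5 days, whereas the vehicle group (3 libraries) had received the same volume of PBS and then medium with DMSO. Cells of both groups had been digested with hyaluronidase type I-S at 4 U/mL for 4 h and were kept at 3% O2 with 10% FBS. In the third group (3 libraries) bleomycin was followed by 20 µM ST045849, an inhibitor of O-GlcNAc transferase, in place of DMSO alone. Its libraries helped to estimate the spread between libraries and are otherwise described only for the number of genes detected. The labels name no strain, age or sex and give no separate animal or culture for each library. The p-values therefore measure the spread between these samples, which may be technical. Transcripts of the sex-linked genes Eif2s3y and Xist differed between libraries of the same group, as described at the end. Poly(A) RNA was sequenced, and the values are FPKM, fragments scaled to the exon length of the gene and to the size of the library. Of the 55450 genes listed, those that reached 1 FPKM in 3 or more of the 6 vehicle and bleomycin libraries, 12075 in number, were tested. The FPKM of a library summed to between 340303 and 406644, and depth, roughly estimated from the smallest step between low values, was 0.875 to 1 times that of vehicle library 1. Changes are given as log2 differences of FPKM + 1 with their standard error (SE), on which the change of low genes appears smaller than it is. A gene was called, and is said to have risen or fallen, at an adjusted p under 0.05 from limma with Benjamini-Hochberg adjustment over all 12075 genes.

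Bleomycin is a glycopeptide that binds metal ions and cuts DNA strands. Cells that carry lasting breaks can leave the cell cycle for good and stay alive, a state called senescence, in which the CDK inhibitor p21 (encoded by Cdkn1a) is typically high and proteases, cytokines and growth factors are secreted. Senescent chondrocytes are found in aged and osteoarthritic cartilage, where the matrix of collagen II and the sulfated proteoglycan aggrecan is lost. In the present libraries Col2a1, which encodes collagen II, stood at 16338 to 24072 FPKM with vehicle and at 12435 to 18516 FPKM with bleomycin and was the highest of the chondrocyte markers. Cdkn1a was at 157, 111 and 151 FPKM in vehicle libraries 1, 2 and 3 and at 243, 331 and 364 FPKM in bleomycin libraries 1, 2 and 3. Its groups lay apart and the gene was called, with a log2 change of 1.15 ± 0.28 (SE) and an adjusted p of 0.037. The adjusted p rose to 0.152 or less, over the threshold, when any 1 of the 6 vehicle and bleomycin libraries or ST045849 library 3 was left out. Mki67, a marker of dividing cells, was below 4 FPKM in every one of these 6 libraries, with a log2 change of -0.60 ± 0.37 (adjusted p = 0.479). Lmnb1, the gene of lamin B1, changed by -0.67 ± 0.21 (adjusted p = 0.101), and its groups did not overlap. Neither passed the test as deposited. Lmnb1 passed after median-of-ratios scaling (adjusted p = 0.0475) and quantile normalization (0.0261), and Cdkn1a was lost when genes of all levels were tested without the filter (0.0878).

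A small share of the genes changed after bleomycin, and most of these rose. Of the 12075 genes 592 (4.9%) were called, of which 507 (4.2%) rose and 85 (0.704%) fell, and in each called gene the bleomycin libraries lay all above or all below the vehicle libraries. The groups lay apart in this way in 3347 genes (27.7% of those tested), and 61.7% of the tested genes were higher with bleomycin whether called or not. Risen genes had a median log2 change of 1.10, with 304 of them changed at least 2-fold and 33 at least 4-fold. Fallen genes had a median of -1.0, with 43 changed at least 2-fold and 3 at least 4-fold. The counts rest on all 6 libraries: leaving out 1 gave 351 calls without vehicle library 1, 198 without vehicle library 2, 220 without vehicle library 3, and 254, 216 and 250 without bleomycin libraries 1, 2 and 3. Calls held in every one of the fits that left out 1 of the 9 libraries for 173 genes, 153 risen and 20 fallen. The median log2 change of all tested genes was 0.096, and -0.023 after median-of-ratios scaling between libraries. That scaling gave 346 risen and 140 fallen genes, quantile normalization 345 and 168. A share of 85.6% of calls was upward as deposited, against 71.2% and 67.25% after these scalings.

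The change followed the level of the gene. The median log2 change was 0.13 among tested genes with a mean of up to 3 FPKM, 0.12 at 3 to 10 FPKM and 0.09 at 10 to 30 FPKM. It was 0.03 at 30 to 100 FPKM, -0.09 at 100 to 300 FPKM and -0.39 above 300 FPKM, so the most abundant transcripts were lower on balance. The share of genes that rose was 7.14, 4.13, 2.49, 2.99, 4.61 and 5.29% in these ranges, from the lowest to the highest, against 4.2% over all tested genes. The lowest range includes genes under 1 FPKM with vehicle that were tested only through the bleomycin libraries, so its share is no test of level. The share of the highest range rests on 9 risen genes of 170. Among the 100 genes with the highest mean, 64 were lower, 5 rose and 1 fell, and their median of -0.38 became -0.52 after median-of-ratios scaling and -0.18 after quantile normalization. The 100 highest genes of each library held 34.7, 36.7 and 33.1% of the FPKM sum in vehicle libraries 1, 2 and 3 and 34.4, 33.5 and 30.4% in bleomycin libraries 1, 2 and 3. These groups overlapped (two-sided exact permutation test, p = 0.4). For the 1000 highest genes the shares were 65.7 to 68.2% with vehicle and 62.1 to 64.7% with bleomycin and did not overlap, with p = 0.1, the smallest that the exact permutation test allows with 3 libraries against 3. At least 1 FPKM was reached by 11731, 11554 and 11697 genes in vehicle libraries 1, 2 and 3 and by 12193, 11948 and 12094 genes in bleomycin libraries 1, 2 and 3, again without overlap and with p = 0.1 in the exact permutation test.

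**Figure D1:**
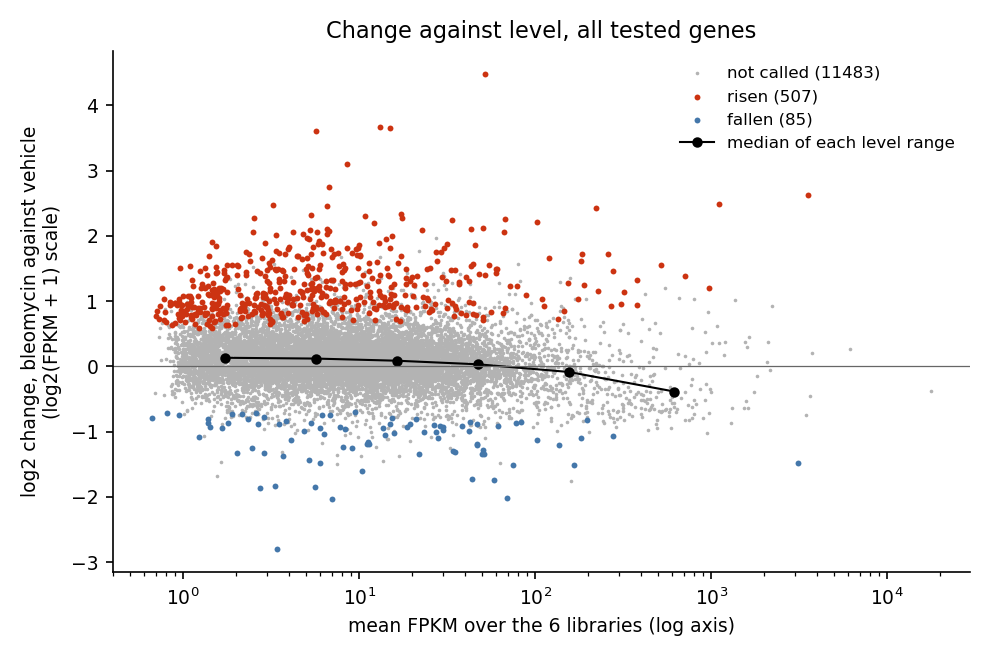
Each point is 1 of the 12075 tested genes, with its mean FPKM over the 6 libraries on a log axis and its log2 change with bleomycin (log2(FPKM + 1) scale) on the vertical axis; risen genes (507) are red, fallen genes (85) blue, and the black line joins the medians of the 6 level ranges. The medians go from 0.13 at the lowest levels to -0.39 above 300 FPKM.

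Among the called genes, few carried most of the change in absolute level. The mean FPKM of the 507 risen genes summed to 16534.5 FPKM more with bleomycin, of which Penk, the gene of the opioid peptide precursor proenkephalin, made up 31.6% and the 8 largest rises together 57.9%. Penk was at 875, 715 and 1255 FPKM in vehicle libraries 1, 2 and 3 and at 9501, 5418 and 3622 FPKM in bleomycin libraries 1, 2 and 3, so the size of its rise differed between bleomycin libraries. Its call was kept whichever library was left out but not without the filter on low values (adjusted p = 0.0671). The 85 fallen genes lost 4933 FPKM in sum, of which H19, an imprinted long non-coding RNA, made up 59.9% and the 8 largest falls together 77.3%. Genes without a call are outside these sums. Among them, the mean of Col2a1 differed by -4570 FPKM, with overlapping groups (adjusted p = 0.682). The risen genes held 1.96, 2.01 and 2.19% of the FPKM sum in vehicle libraries 1, 2 and 3 and 7.93, 6.22 and 5.80% in bleomycin libraries 1, 2 and 3. With bleomycin 420 of the 507 risen genes (82.8%) were under 30 FPKM, close to the 83.3% of all tested genes, and 31 (6.11%) reached 100 FPKM, against 4.28% of all tested genes.

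Secreted inhibitors and small proteoglycans stood among the largest rises. Timp2, an inhibitor of matrix metalloproteinases, was at 214, 206 and 228 FPKM in vehicle libraries 1, 2 and 3 and at 508, 548 and 567 FPKM in bleomycin libraries 1, 2 and 3 (log2 change 1.32 ± 0.20, adjusted p = 0.00422). Serpine2, which encodes the serine protease inhibitor protease nexin-1, rose from 133, 103 and 124 FPKM to 429, 373 and 385 FPKM (1.72 ± 0.22, adjusted p = 0.00253). Both genes kept their call whichever library was left out, and their 3 bleomycin values lay closer together than the distance between the groups. Cst3, the gene of the cysteine protease inhibitor cystatin C, rose from 367, 390 and 407 FPKM to 909, 1222 and 936 FPKM (1.38 ± 0.25, adjusted p = 0.0112), a call that ended when vehicle library 2 or 3 or bleomycin library 2 was left out (adjusted p up to 0.0686). The proteoglycan genes Dcn (decorin) and Lum (lumican), whose products bind collagen fibrils, had means of 587 ± 87.9 (SD, n = 3) and 261 ± 44.4 FPKM with vehicle and 1363 ± 256 and 774 ± 169 FPKM with bleomycin. Their adjusted p of 0.0498 and 0.0409 passed narrowly. Both calls were lost without any 1 of the 6 vehicle and bleomycin libraries or ST045849 library 3, with adjusted p up to 0.191 and 0.159, after median-of-ratios scaling, with 0.0864 and 0.0661, and without the filter on low values, with 0.153 and 0.124. Cst3 was at 0.0508 without that filter.

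Among the large falls in level were a peroxisomal enzyme gene and imprinted non-coding RNAs. Phyh, of peroxisomal alpha-oxidation of phytanic acid, fell from 174, 172 and 224 FPKM to 80.8, 80.4 and 82.8 FPKM (-1.20 ± 0.20, adjusted p = 0.00673) and kept its call whichever library was left out. H19 was at 3622, 5141 and 4980 FPKM in vehicle libraries 1, 2 and 3 and at 1495, 1655 and 1731 FPKM in bleomycin libraries 1, 2 and 3 (-1.48 ± 0.27, adjusted p = 0.0123). Its groups lay apart, although leaving out vehicle library 2 or 3 or a bleomycin library ended the call (adjusted p up to 0.0724). Meg3, a long non-coding RNA of another imprinted domain, fell by 1.06 ± 0.25 on the log2 scale (adjusted p = 0.0362), a call lost without any vehicle library, bleomycin library 2 or 3 or ST045849 library 3 (adjusted p up to 0.174) and after quantile normalization (0.108). Without the filter on low values H19 and Meg3 were also lost (adjusted p = 0.156 and 0.0758).

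**Figure D2:**
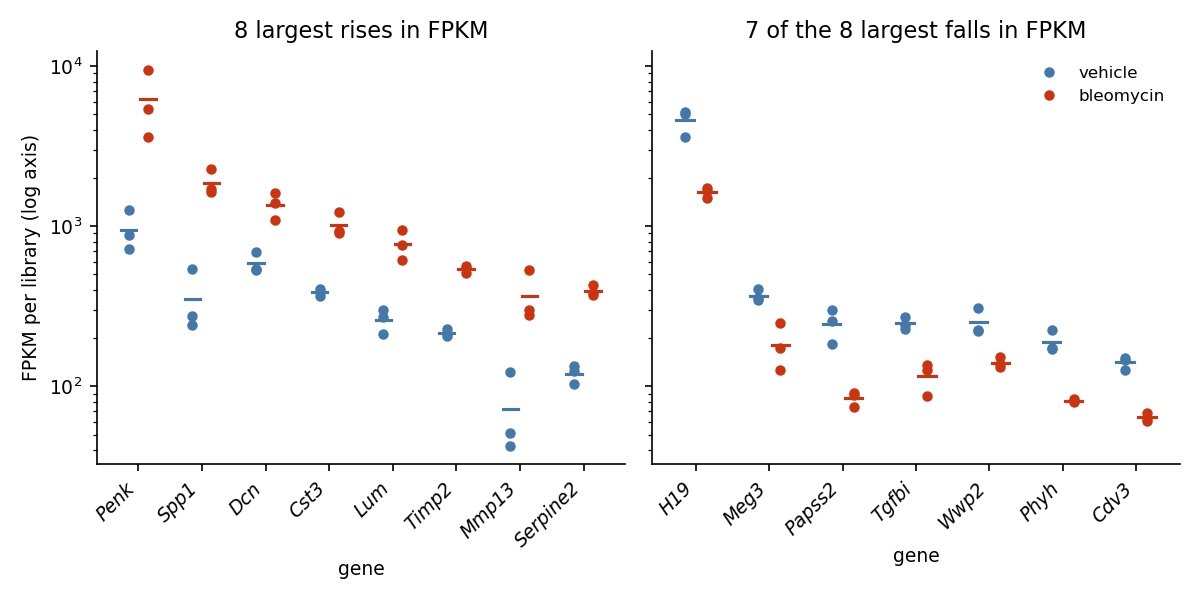
FPKM per library on a log axis for the 8 called genes with the largest rise (left) and 7 of the 8 with the largest fall (right) in mean FPKM; points are the 3 libraries of each group (vehicle blue, bleomycin red) and bars their means. The groups do not overlap in any of these genes, and the 3 bleomycin values of Phyh lie between 80.4 and 82.8 FPKM.

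Some genes went from near background to a clear signal, but few of them reached a high level. Under 0.5 FPKM in all 3 vehicle libraries and at 1 FPKM or more in all 3 bleomycin libraries were 47 called genes, with a median of 1.78 FPKM with bleomycin. The reverse held for 3 called genes. Bglap2, an osteocalcin gene of mineralizing tissue, was at 0.0886, 0 and 0 FPKM with vehicle and at 2.52, 3.07 and 3.00 FPKM with bleomycin (log2 change 1.91 ± 0.15, adjusted p = 0.000377). The call held whichever library was left out. Its neighbour Bglap had 0.412, 0 and 0 FPKM against 3.10, 3.00 and 1.93 FPKM (1.70 ± 0.21, adjusted p = 0.00252). Both genes are near-identical copies, so the split of reads between them is uncertain. Otor, which encodes a small secreted protein of cartilage and inner ear, rose from between 0.231 and 0.411 FPKM to between 2.67 and 7.18 FPKM (2.07 ± 0.42, adjusted p = 0.0193), a call lost without any vehicle library or without bleomycin library 1 or 2 (adjusted p up to 0.0801) and without the filter on low values (0.083). Gm20431 was listed at 0 in all vehicle libraries and at 11.9, 12.8 and 9.32 FPKM with bleomycin, and Gm27671, a microRNA gene, at 4.72 to 7.95 against 0.091 to 0.106 FPKM. All exon sequence of Gm20431 lies within exons of Ube2v1, and that of Gm27671 within Marf1, on the same strand. Their reads cannot be told apart from those of the larger gene. Likewise all of Msmp, the largest rise of the comparison (log2 change 4.47 ± 0.58), lies over exons of Rgp1 on the opposite strand, while Rgp1 itself changed by 0.02 ± 0.31 (adjusted p = 0.991). Whether strand was used in counting is not given in the sources used here.

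Promoter sequences were compared because the risen genes include members of the AP-1 and interferon-responsive groups, whose factors bind known short motifs. RefSeq windows from 250 bases before to 50 bases after the start of a gene (GRCm38.p6) were matched for 9153 of the 12075 tested genes, 375 of the risen and 58 of the fallen ones. TGANTCA, the AP-1 motif, which reads the same on both strands, was in a window of 6.0% of the matched tested genes, of 44 of the 375 risen genes (11.7%) and of 7 of the 58 fallen genes (12.1%). It was in 7.81% of all 32851 windows. The core of the interferon-stimulated response element, taken as GAAA, any 2 bases and GAAA, searched on both strands, was in a window of 3.47% of the tested genes, 9.07% of the risen (34) and 5.17% of the fallen (3), and in 3.44% of all windows. The cyclic AMP response element TGACGTCA, also the same on both strands, was in 3.64, 3.47 and 6.90% of the tested, risen and fallen genes and in 1.79% of all windows. A match describes the letters in this window and is neither a binding site nor a cause. The genes shown next all have a match, unlike most risen genes, and are no sample of them. Of these, Mmp3 rose from 1.40, 0.634 and 0.417 FPKM with vehicle to 47.2, 17.0 and 12.2 FPKM with bleomycin. Isg15 rose from 1.30, 1.30 and 0.430 FPKM to 50.3, 27.2 and 9.46 FPKM. The size of both rises thus differed between bleomycin libraries. Shown are the 250 bases before the start of 3 genes that rose strongly, each with its motif matches in capitals, 5′ to 3′ along the gene: Mmp3 (stromelysin-1, an enzyme that degrades proteoglycans and activates collagenases; chr9:7445572-7445821, plus strand, match from 46 bases before the start), Aldh1a1 (a retinal dehydrogenase; the one of its 2 windows with a match, chr19:20492333-20492582, plus strand, match from 57 bases before the start) and Isg15 (a ubiquitin-like protein of the interferon response; chr4:156200819-156201068, minus strand, 3 overlapping or adjoining matches).
Mmp3: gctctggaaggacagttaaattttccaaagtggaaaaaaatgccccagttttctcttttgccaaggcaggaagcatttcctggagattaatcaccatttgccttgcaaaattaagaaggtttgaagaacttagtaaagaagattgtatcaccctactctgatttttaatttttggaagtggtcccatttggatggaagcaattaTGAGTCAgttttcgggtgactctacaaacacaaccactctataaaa
Aldh1a1: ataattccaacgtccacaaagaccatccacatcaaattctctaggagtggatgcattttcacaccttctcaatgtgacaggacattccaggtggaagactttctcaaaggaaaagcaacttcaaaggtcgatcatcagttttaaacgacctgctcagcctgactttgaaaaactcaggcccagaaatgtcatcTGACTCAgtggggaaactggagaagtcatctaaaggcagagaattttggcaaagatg
Isg15: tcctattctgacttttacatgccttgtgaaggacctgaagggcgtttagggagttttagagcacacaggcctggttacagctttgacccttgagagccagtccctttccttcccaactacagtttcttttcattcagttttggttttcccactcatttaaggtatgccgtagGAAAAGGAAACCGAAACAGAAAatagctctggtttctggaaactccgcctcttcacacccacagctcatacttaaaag

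Beyond the usual senescence genes, 52 lists of gene classes were followed, of which 37 held at least 1 called gene and 15 held none. They covered 108 of the 592 called genes (18.2%), and the other 484 lay in none of them. Receptors and their intracellular brakes held larger shares of risen genes than the 4.2% over all genes. Such shares are no test of a class, because genes under 1 FPKM with vehicle were tested only through the bleomycin libraries. P2ry6, Gpr35, Rgs16, Notch3, Jag1, Efna3, Wfdc1 and Slc1a6, described below, are among these genes. Of all tested genes with a mean of up to 3 FPKM, 7.14% rose. Of 59 tested G protein-coupled receptors, which pass signals of hormones, nucleotides and proteases across the membrane, 13 rose and 1 fell, 45 did not pass, and their median log2 change was 0.34 against 0.096 for all genes. P2ry6, a receptor for UDP, was at 0.187, 0.296 and 0.323 FPKM in vehicle libraries 1, 2 and 3 and at 2.12, 2.28 and 1.59 FPKM in bleomycin libraries 1, 2 and 3 (1.23 ± 0.16, adjusted p = 0.00252). Gpr35, an orphan-type receptor of immune and gut cells, rose from 0.688, 0.549 and 0.506 FPKM to 2.47, 2.43 and 2.55 FPKM (1.14 ± 0.17, adjusted p = 0.00475). The 3 bleomycin values of Gpr35 differed by far less than the gap to vehicle, and both receptors kept their call whichever library was left out. F2r, the thrombin receptor, also kept its call, as the 1 further receptor of the 14 called that did so. After median-of-ratios scaling 10 of the receptors rose and 1 fell, and after quantile normalization 7 rose and 1 fell.

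Genes that dampen or carry out such signals also rose in part. RGS proteins speed up the switching off of G proteins, and 3 of 8 tested rose and none fell (median log2 change 0.73). Rgs16 was at 0.167, 0.131 and 0.201 FPKM with vehicle and at 1.20, 1.69 and 1.29 FPKM with bleomycin (1.03 ± 0.16, adjusted p = 0.00463), a call that held whichever library was left out. Of 11 MAPK phosphatases, Sprouty and Spred genes, feedback inhibitors of receptor tyrosine kinase signalling, 4 rose and none fell (median 0.71), and 2 rose after either scaling. Spred3 rose from 1.36, 1.02 and 0.982 FPKM to 3.56, 2.96 and 3.00 FPKM (0.98 ± 0.17, adjusted p = 0.00957), a call lost without vehicle library 2 or 3 (adjusted p up to 0.0572). Of 12 AP-1 and immediate-early genes, transcription factors that respond to growth signals and stress, 3 rose and none fell (median 0.30, also 3 under both scalings). Fosl1, which encodes the AP-1 subunit Fra-1, was at 3.70, 1.68 and 2.22 FPKM with vehicle and at 9.38, 9.93 and 14.3 FPKM with bleomycin (1.81 ± 0.30, adjusted p = 0.00754). A share of 57.2% of the exon length of Fosl1 lies opposite Ccdc85b, so reads of both may be mixed if strand was not used. Maff, a small Maf factor, rose from 1.36, 0.911 and 1.02 FPKM to 3.89, 5.41 and 5.34 FPKM (1.48 ± 0.25, adjusted p = 0.00806). The calls of Fosl1 and Maff held whichever library was left out. Ccnd1, chosen after its values were seen, encodes cyclin D1, which drives entry into the cell cycle and is a known AP-1 target. It was at 16.2, 13.9 and 16.6 FPKM with vehicle and at 53.5, 78.5 and 81.8 FPKM with bleomycin, a log2 change of 2.11 ± 0.21 (adjusted p = 0.000793) that was called whichever library was left out. No gene of the phosphodiesterase and adenylate cyclase list (17 tested, median 0.45) or of the Kruppel-like factors (14 tested, median 0.25) was called as deposited. With 4.9% of all genes called, lists of this size can hold none.

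**Figure D3:**
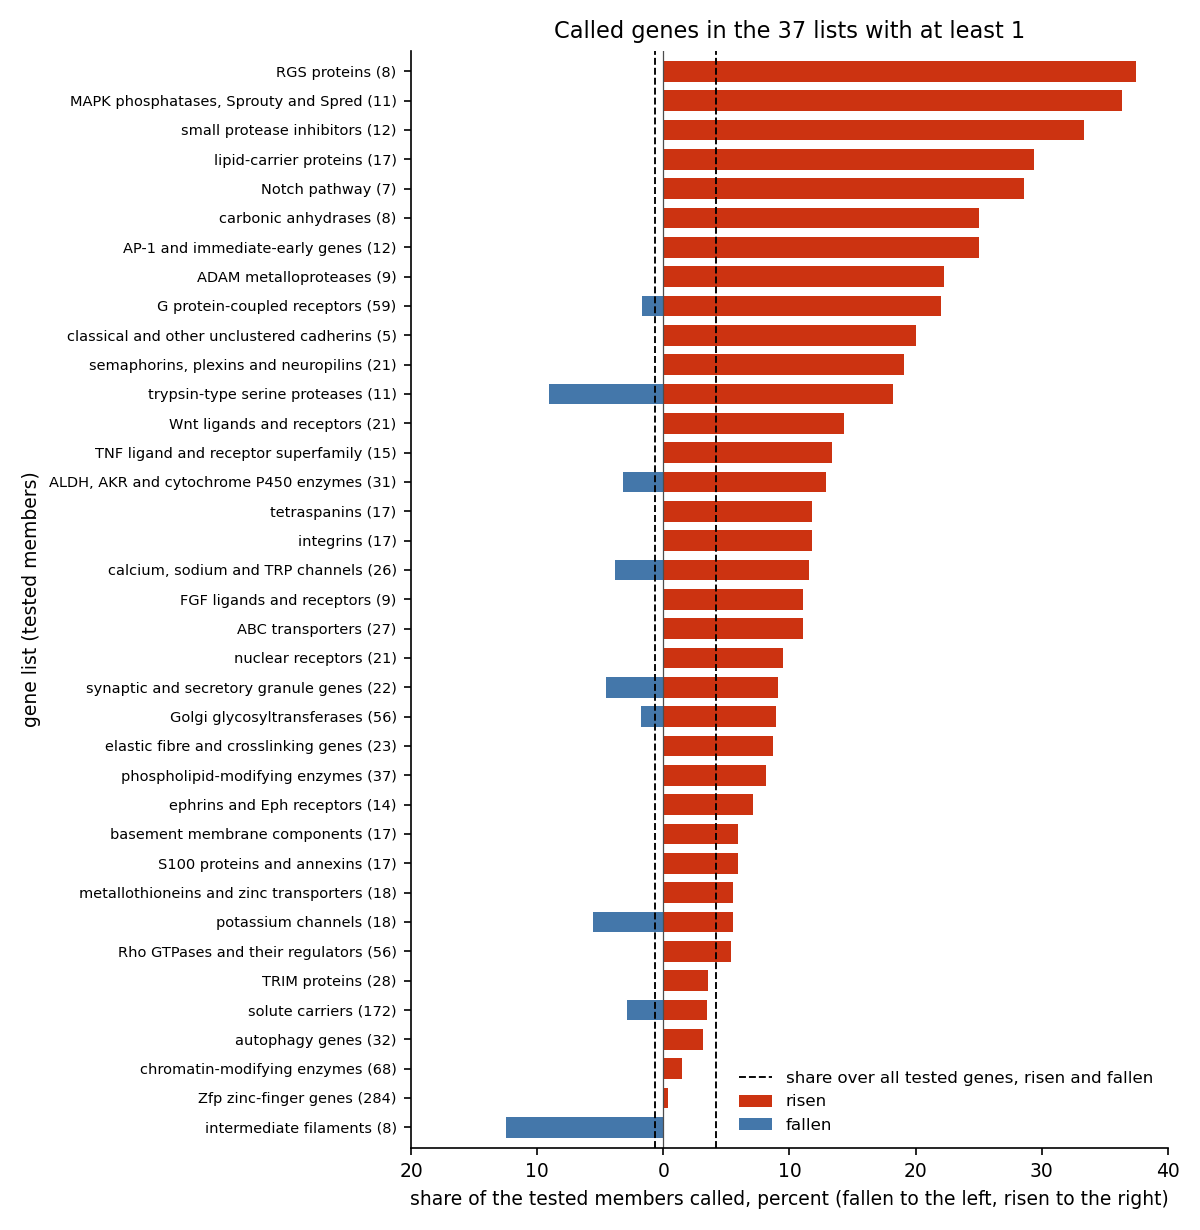
Bars give the percentage of the tested members of a gene list that rose (red, to the right) or fell (blue, to the left), for the 37 lists with at least 1 called gene, with the number of tested members in parentheses; dashed lines mark the percentages over all 12075 genes (4.2% risen, 0.704% fallen). RGS proteins (3 of 8) lie at the top and the Zfp zinc-finger genes (1 of 284) near the bottom. The shares include genes that reached 1 FPKM only in the bleomycin libraries.

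Ligands and receptors of developmental pathways rose in part. Of 21 Wnt ligands, R-spondins and Frizzled receptors 3 rose and none fell (median 0.35, also 3 under both scalings). Rspo2, a secreted amplifier of Wnt signals, was at 1.55, 1.21 and 1.20 FPKM in vehicle libraries 1, 2 and 3 and at 14.1, 10.4 and 10.8 FPKM in bleomycin libraries 1, 2 and 3 (2.45 ± 0.32, adjusted p = 0.00253), and Wnt11 rose from 2.11, 1.86 and 1.28 FPKM to 5.69, 9.68 and 7.70 FPKM (1.65 ± 0.25, adjusted p = 0.00433). Both calls held whichever library was left out. Of 7 Notch pathway genes 2 rose, the receptor Notch3 (from 0.141, 0.750 and 0.406 FPKM to 2.55, 2.65 and 1.81 FPKM, adjusted p = 0.0112) and the ligand Jag1 (from 0.308 to 0.428 FPKM up to 1.09 to 1.43 FPKM, adjusted p = 0.0409). Both were under 1 FPKM in every vehicle library and entered the 7 tested genes only through the bleomycin libraries, so this share is no test of the pathway. The call of Notch3 ended when vehicle library 3 or bleomycin library 2 was left out (adjusted p up to 0.0518), and that of Jag1 without any 1 of the 6 libraries (up to 0.168) and after median-of-ratios scaling and quantile normalization (0.0545 and 0.113). Efna3, a membrane-bound ephrin ligand of Eph receptors, rose from 0.154, 0.257 and 0.214 FPKM to 1.74, 2.19 and 2.17 FPKM (1.33 ± 0.18, adjusted p = 0.00309), as the 1 called gene of 14 tested, and kept its call in all fits that left out a library. Of 21 semaphorins, plexins and neuropilins, known as guidance cues, 4 rose (median 0.48), but 1 rose after either scaling and none kept its call when each library was left out. In the TNF ligand and receptor family 2 of 15 rose (median 0.52). They were Eda2r and Tnfrsf11b, the gene of osteoprotegerin, a soluble decoy of the osteoclast factor RANKL, which rose from 75.9, 73.2 and 101 FPKM to 192, 296 and 368 FPKM (1.73 ± 0.33, adjusted p = 0.0138). The call of Tnfrsf11b was lost without vehicle library 2 or bleomycin library 2 or 3 (adjusted p up to 0.0706). Without the filter on low values Notch3, Jag1 and Tnfrsf11b had an adjusted p of 0.0503, 0.0719 and 0.0523.

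At the cell surface and in the matrix, integrins, a cadherin and elastic fibre genes were among those that rose. Of 17 integrins 2 rose, among them Itga7, a laminin receptor (1.71, 1.78 and 1.72 FPKM against 5.69, 5.69 and 4.57 FPKM, 1.20 ± 0.19, adjusted p = 0.00534). Cdh13, a cadherin anchored by a lipid tail, rose from 1.18, 1.43 and 1.54 FPKM to 4.69, 4.58 and 5.01 FPKM (1.28 ± 0.16, adjusted p = 0.00252). Both kept their call whichever library was left out, and in both the 3 vehicle values lay close together. Of 23 elastic fibre and crosslinking genes 2 rose and none fell (median 0.36, also 2 under both scalings). Mfap5, a microfibril glycoprotein, rose from 1.98, 1.06 and 1.62 FPKM to 7.20, 9.52 and 9.75 FPKM (1.95 ± 0.28, adjusted p = 0.00405), and Efemp1, the gene of fibulin-3, from 17.8, 19.8 and 27.7 FPKM to 57.1, 60.6 and 81.5 FPKM (1.57 ± 0.25, adjusted p = 0.00637). Prg4, the gene of the joint lubricant lubricin and a marker of the cartilage surface, rose from 14.4, 9.50 and 14.9 FPKM to 51.2, 37.7 and 62.1 FPKM (1.88 ± 0.23, adjusted p = 0.00252). It was the 1 called gene of 14 chondrocyte markers, of which 4 were higher. Mfap5, Efemp1 and Prg4 kept their call whichever library was left out. Markers fixed for fibroblasts or synovium rose beside these genes: 7 of 10 were tested, all 7 were higher and 3 rose, and their FPKM summed to 1725 to 2403 with vehicle and 2660 to 3778 with bleomycin. Among them Cd248 (endosialin) rose from 22.9, 26.3 and 27.7 FPKM to 63.7, 71.0 and 74.4 FPKM and Cd34 from 7.49, 6.76 and 8.53 FPKM to 19.1, 17.4 and 17.8 FPKM (adjusted p = 0.00848 and 0.00405). In bulk RNA a larger share of such cells and more RNA per cell cannot be told apart, and the part of these markers in the changes above was not tested.

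Proteases and their inhibitors changed in both directions. Of 9 ADAM metalloproteases 2 rose (median 0.54). Adam8, a sheddase, rose from 1.89, 1.44 and 1.09 FPKM to 5.44, 6.37 and 5.65 FPKM (1.47 ± 0.23, adjusted p = 0.00556) and kept its call whichever library was left out. Of 11 trypsin-type serine proteases 2 rose and 1 fell. Klk10, a kallikrein, was at 18.4, 7.99 and 9.52 FPKM in vehicle libraries 1, 2 and 3 and at 1.94, 1.53 and 2.60 FPKM in bleomycin libraries 1, 2 and 3, with a log2 change of -2.03 ± 0.28 (adjusted p = 0.00309). Its groups lay far apart although vehicle library 1 was higher than the other vehicle libraries. Prss23 rose from 136, 128 and 175 FPKM to 399, 346 and 472 FPKM (1.46 ± 0.27, adjusted p = 0.0115), a call lost without vehicle library 2 or bleomycin library 3 (adjusted p up to 0.0636). Of 12 small protease inhibitors 4 rose and none fell (median 0.43, 3 under either scaling), among them Wfdc1, a whey-acidic-protein inhibitor, from 0.693, 0.639 and 0.412 FPKM to 2.36, 2.76 and 2.76 FPKM (1.20 ± 0.15, adjusted p = 0.00253). Wfdc1 kept its call in every fit that left out a library.

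The share of called genes differed between classes of channels, carriers and transporters. Of 172 solute carriers 6 rose and 5 fell (3.49 and 2.91%), with a median of 0.14, which is near that of all genes. Slc1a6, a glutamate carrier known from Purkinje cells, rose from 0.394, 0.269 and 0.208 FPKM to 3.12, 2.40 and 1.78 FPKM (1.40 ± 0.18, adjusted p = 0.00253) and kept its call whichever library was left out. Of 26 calcium, sodium and TRP channels 3 rose and 1 fell. Cacng7, an auxiliary subunit of glutamate receptors and calcium channels, rose from 5.59, 6.49 and 6.49 FPKM to 18.6, 16.7 and 16.8 FPKM (1.35 ± 0.21, adjusted p = 0.00561). Trpv4, the ion channel by which chondrocytes sense load and swelling, fell from 85.4, 79.0 and 78.1 FPKM to 45.6, 44.1 and 37.9 FPKM (-0.91 ± 0.19, adjusted p = 0.02). The call of Cacng7 held whichever library was left out, whereas that of Trpv4 was lost without any 1 of the 6 libraries (adjusted p up to 0.0995). Kcnk6, a potassium leak channel, fell from 4.77, 6.08 and 7.16 FPKM to 2.36, 1.94 and 2.21 FPKM (-1.13 ± 0.19, adjusted p = 0.00734), a call that held in all these fits. Of 17 lipid-carrier proteins 5 rose and none fell (median 0.42), with 4 risen and 1 fallen after median-of-ratios scaling and 2 risen after quantile normalization. Pltp, which transfers phospholipids between lipoproteins, rose from 13.4, 10.4 and 8.47 FPKM to 33.8, 25.5 and 24.9 FPKM (1.31 ± 0.23, adjusted p = 0.00834, kept whichever library was left out). Pla2g5, a secreted phospholipase A2, rose from 1.75, 1.53 and 1.66 FPKM to 5.60, 6.90 and 5.25 FPKM (1.38 ± 0.19, adjusted p = 0.0034), as 1 of 3 risen genes among 37 phospholipid-modifying enzymes, and kept its call likewise.

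Another 5 lists were drawn up after the values were seen, around called genes that shared a known role, so their counts describe where these genes lie and are no test of the list. In retinoid metabolism, the route from vitamin A to the hormone retinoic acid and its breakdown, 5 of 14 tested genes rose and none fell. Aldh1a1, which makes retinoic acid and whose promoter is printed above, was at 0.176, 0.311 and 0.141 FPKM in vehicle libraries 1, 2 and 3 and at 4.26, 5.14 and 5.07 FPKM in bleomycin libraries 1, 2 and 3 (2.27 ± 0.18, adjusted p = 0.000377). Rarres2, a retinoid-induced gene that encodes the chemoattractant chemerin, rose from 1.43, 1.49 and 1.14 FPKM to 11.1, 9.40 and 6.96 FPKM (2.09 ± 0.22, adjusted p = 0.00101). Both kept their call whichever library was left out, and every bleomycin value of Aldh1a1 lay far above the highest vehicle value. Cyp26b1, which breaks retinoic acid down, rose from 1.31, 1.28 and 1.25 FPKM to 3.47, 4.60 and 3.72 FPKM (1.11 ± 0.20, adjusted p = 0.0112), a call that leaving out vehicle library 2 or 3 or bleomycin library 2 ended (adjusted p up to 0.0592). The retinoic acid receptor genes did not pass, with 0.77 ± 0.21 for Rara and -0.30 ± 0.19 for Rarg (adjusted p = 0.0663 and 0.481).

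Some genes that act on blood clotting factors and vessel tone rose in these cells of a tissue without vessels. Among 9 genes of thrombin and coagulation at the cell surface 3 rose, none fell and 6 did not pass. Thbd encodes thrombomodulin, which binds thrombin and turns it towards activating protein C, and was at 17.9, 17.3 and 19 FPKM with vehicle and at 69.0, 96.3 and 81.6 FPKM with bleomycin (2.12 ± 0.20, adjusted p = 0.000693). F2r, the receptor that thrombin cleaves, rose from 3.24, 3.91 and 4.46 FPKM to 12.3, 10.9 and 14.5 FPKM (1.48 ± 0.25, adjusted p = 0.00734). Both calls held whichever library was left out. Procr, the protein C receptor, rose from 5.34, 3.67 and 4.20 FPKM to 10.9, 9.07 and 9.06 FPKM (0.99 ± 0.19, adjusted p = 0.0164), a call that leaving out vehicle library 2 or 3 or a bleomycin library ended (adjusted p up to 0.0818). Among 16 genes of vasoactive peptides 6 rose, none fell and 10 did not pass. Adm (chromosome 7, 110627661 to 110629820, GRCm38), which encodes the vessel-widening peptide adrenomedullin, was at 26.7, 22.9 and 25.9 FPKM with vehicle and at 119, 100.4 and 104 FPKM with bleomycin (2.05 ± 0.18, adjusted p = 0.000665). Ece1, the enzyme that matures endothelins, rose from 8.58, 8.33 and 9.62 FPKM to 20.8, 22.5 and 24.3 FPKM, and Ddah2, which breaks down an inhibitor of nitric oxide synthesis, from 12.1, 9.28 and 8.84 FPKM to 27.7, 27.7 and 25.7 FPKM (adjusted p = 0.00677 and 0.00274). Adm, Ece1 and Ddah2 kept their call whichever library was left out, and their groups lay far apart. The endothelin gene Edn1 rose from 0.260, 0.399 and 0.537 FPKM to 1.17, 1.93 and 2.32 FPKM (adjusted p = 0.0138), a call ended by leaving out vehicle library 1 or 2 or bleomycin library 2 or 3 (adjusted p up to 0.0654). The defining endothelial markers Pecam1, Cdh5, Kdr, Tek, Emcn and Vwf summed to 0.047 to 0.145 FPKM with vehicle and 0.478 to 0.579 FPKM with bleomycin, with none of the 6 tested.

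Some genes that supply sugar and sulfate donors to the Golgi fell. Aggrecan and other proteoglycans carry chains built from activated sugars and sulfated with the donor PAPS. Of 35 tested genes in a list of nucleotide sugar and sulfate donor genes 5 fell, none rose and 30 did not pass. Their median was -0.16 (7 fell after median-of-ratios scaling and 6 after quantile normalization). The list is broader than the donors of these chains, and not every member is known to make or carry a donor. Slc35d1, which carries UDP-sugars for chondroitin sulfate into the Golgi or endoplasmic reticulum, kept its call whichever library was left out. It fell from 17.2, 20.1 and 20.6 FPKM to 8.43, 8.57 and 9.24 FPKM (-1.06 ± 0.17, adjusted p = 0.0069). Papss2 makes PAPS, is needed for normal cartilage and was at 185, 299 and 255 FPKM in vehicle libraries 1, 2 and 3 and at 90.6, 88.9 and 74.2 FPKM in bleomycin libraries 1, 2 and 3 (-1.51 ± 0.34, adjusted p = 0.0302). Its groups lay apart, but the call ended on leaving out vehicle library 2 or 3 or a bleomycin library (adjusted p up to 0.12), after quantile normalization (0.0705) and without the filter on low values (0.0873). Slc10a7, mutated in a human skeletal dysplasia, fell from 13.4, 16.7 and 18.7 FPKM to 5.77, 6.41 and 7.33 FPKM (-1.20 ± 0.26, adjusted p = 0.0259), lost without the same 5 libraries (adjusted p up to 0.114), as TPM (0.0656) and without the filter (0.0661). The sulfate carrier gene Slc26a2 was at 46.0, 80.3 and 87.1 FPKM against 33.5, 25.8 and 36.2 FPKM and did not pass (-1.10 ± 0.35, adjusted p = 0.111), nor did Papss1 (-0.68 ± 0.19, adjusted p = 0.0729). In a fit of the 6 vehicle and bleomycin libraries alone both passed (adjusted p = 0.0384 and 0.0386). Ugdh, which makes UDP-glucuronic acid, changed by -0.05 ± 0.28 (adjusted p = 0.966). Acan itself, the core protein gene, was at 1023, 1508 and 1294 FPKM against 619, 693 and 546 FPKM and did not pass (-1.03 ± 0.28, adjusted p = 0.0663), but passed in the fit of the 6 libraries alone (0.0278).

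Some genes that place double bonds in fatty acids fell. Of 20 tested genes of fatty acid synthesis and desaturation 4 fell, none rose and 16 did not pass (median -0.18). Fads2, the delta-6 desaturase, was at 82.0, 61.4 and 72.5 FPKM in vehicle libraries 1, 2 and 3 and at 25.9, 29.2 and 27.5 FPKM in bleomycin libraries 1, 2 and 3 (-1.35 ± 0.23, adjusted p = 0.00865), and kept its call whichever library was left out. The related Fads1 fell from 86.5, 55.8 and 55.3 FPKM to 29.9, 29.0 and 24.4 FPKM, the stearoyl-CoA desaturase gene Scd1 from 42.2, 47.9 and 56 FPKM to 17.8, 20.4 and 19.2 FPKM, and Srebf1, a transcription factor of lipid synthesis, from 109, 55.9 and 60.1 FPKM to 31.2, 27.0 and 25.3 FPKM (adjusted p = 0.0232, 0.0499 and 0.0299). In each the groups lay apart, but each call was lost without any 1 of the 6 libraries, with adjusted p up to 0.098, 0.174 and 0.109, and that of Scd1 also without ST045849 library 3. Without the filter on low values Fads1, Scd1 and Srebf1 were at 0.0561, 0.125 and 0.08, and as TPM Scd1 was at 0.108. Scd1 was also lost with a replicate block in the 9 libraries. Fasn, the fatty acid synthase, changed by -0.13 ± 0.19 and Acaca, acetyl-CoA carboxylase, by -0.40 ± 0.48 (adjusted p = 0.819 and 0.77). Among the other desaturase genes Fads3 changed by -0.52 ± 0.23 and Scd2 by -0.84 ± 0.52, without a call (adjusted p = 0.278 and 0.48). Elovl6, which lengthens fatty acids, was at 7.97, 7.48 and 9.60 FPKM against 5.13, 2.82 and 4.75 FPKM and did not pass (-0.86 ± 0.26, adjusted p = 0.0932), but passed after quantile normalization (0.0283) and in the fit of the 6 libraries alone (0.0433).

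**Figure D4:**
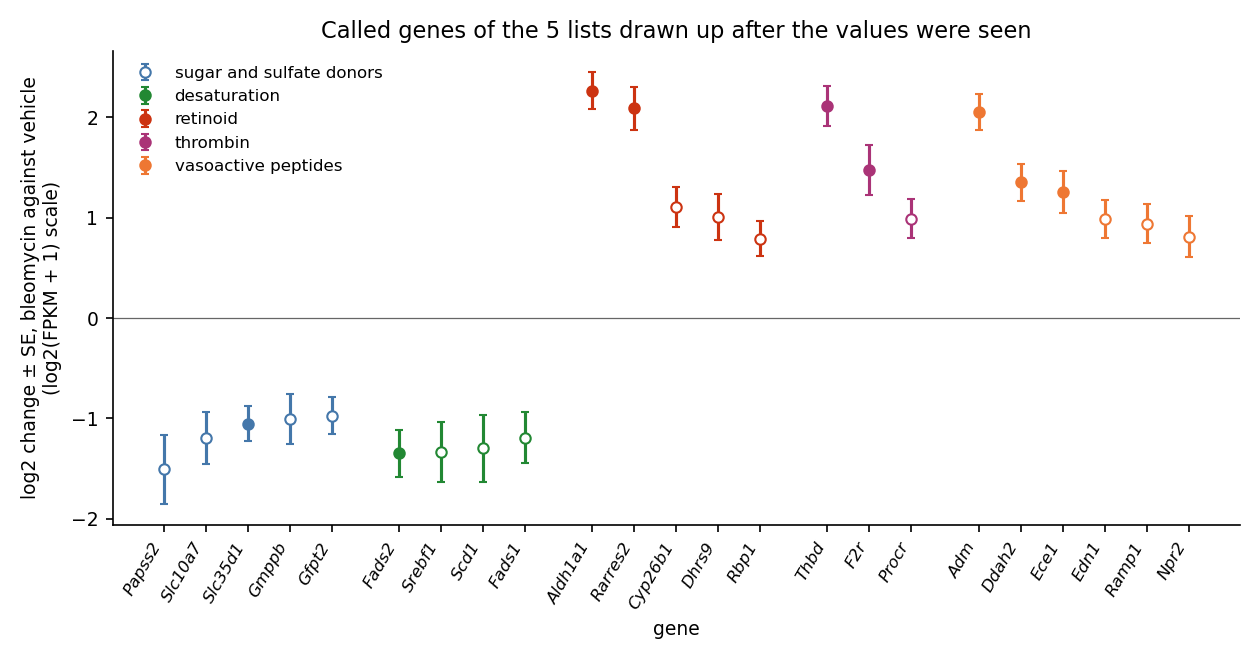
Log2 change with bleomycin ± SE (log2(FPKM + 1) scale) of every called member of the 5 lists drawn up after the values were seen; filled points kept their call in all fits that left out 1 of the 9 libraries and open points lost it in at least 1. Called sugar and sulfate donor and desaturation genes lie between -1.51 and -0.97, called retinoid, thrombin and vasoactive genes between 0.79 and 2.27.

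Several classes of the nucleus, the cytoskeleton and protein turnover held few called genes. Of 284 Zfp zinc-finger genes 1 was called and of 68 chromatin-modifying enzymes 1 was called, shares under the 4.9% of all genes. None was called among 31 SR proteins and hnRNPs, 30 nucleolar ribosome biogenesis genes, 15 snoRNA host genes, 46 proteasome subunits, 14 tubulins, 22 ciliary transport genes, 15 Hox genes or 16 peroxisome biogenesis genes. At the 4.9% of all genes, lists of these sizes would hold few calls or none, so the lack of calls does not set these classes apart. In 2 of these classes most members were lower: 5 of the 31 SR protein and hnRNP genes, which act in splicing, were higher (median -0.19), and 5 of the 15 snoRNA host genes (median -0.12). Npm1, the abundant nucleolar protein nucleophosmin, was at 406, 287 and 387 FPKM against 176, 182 and 238 FPKM, with groups apart and no call (-0.85 ± 0.28, adjusted p = 0.121), and passed narrowly after median-of-ratios scaling (0.0477). Autophagy genes were higher in 26 of 32 with a median of 0.18, and 1 rose, Gabarapl1, from 30.8, 25.5 and 27.9 FPKM to 53.8, 57.8 and 57.7 FPKM (0.99 ± 0.22, adjusted p = 0.0283). That call was lost without any 1 of the 6 libraries (adjusted p up to 0.112).

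Some large changes were not called. At least 2-fold changed were 120 genes that were not called, and the groups lay apart in 98 of these, against 27.7% of all tested genes. Genes picked for a large change lie apart more readily, so this count is no test of missed changes. Unadjusted p was under 0.05 in 1483 genes that were not called. Hmox1, the stress-induced heme oxygenase, was at 65.2, 24.5 and 34.1 FPKM with vehicle and at 87.2, 141 and 123 FPKM with bleomycin (1.57 ± 0.50, adjusted p = 0.106), and passed in the fit of the 6 libraries alone (0.0265). Srgn, the gene of the intracellular proteoglycan serglycin, was at 3.03, 11.6 and 16.7 FPKM against 21.4, 36.7 and 40.9 FPKM (1.77 ± 0.51, adjusted p = 0.0773). Ibsp, which encodes bone sialoprotein of mineralizing matrix, was at 20.9, 3.95 and 7.39 FPKM against 83.3, 22.1 and 26.8 FPKM (1.96 ± 0.72, adjusted p = 0.17). In all 3 genes the groups lay apart while values differed up to several fold within a group. With a replicate block in the 9 libraries Ibsp was called (adjusted p = 0.00257), as was Srgn, whereas Hmox1 was not (0.143). Eno1b, an enolase copy, ran from 130 to 351 FPKM with vehicle and from 11.2 to 168 FPKM with bleomycin, which overlapped (-1.76 ± 1.47, adjusted p = 0.639).

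More genes were above 0 FPKM after bleomycin. Above 0 FPKM were 20893, 20817 and 20355 genes in vehicle libraries 1, 2 and 3 and 23072, 23218 and 22445 genes in bleomycin libraries 1, 2 and 3, without overlap (exact permutation test, p = 0.1, the smallest possible here). The number of reads is unknown, and depth could be estimated only from the smallest step between low values. Relative to vehicle library 1 this estimate was 1, 0.998 and 0.926 in vehicle libraries 1, 2 and 3 and 0.996, 0.998 and 0.875 in bleomycin libraries 1, 2 and 3. The estimate was lowest in bleomycin library 3, which had more genes above 0 than any vehicle library. It is rough, because only 25.2 to 27.6% of the low values lay close to a whole number of steps. The part of depth in these counts was not tested. Most of the added genes were faint: 4478 genes lay above 0 but under 0.1 FPKM with vehicle and 5841 with bleomycin on average. By class, protein-coding genes went from a mean of 14580 to 15959 detected and long non-coding genes from 2069 to 2552. MicroRNA genes went from 522 to 544 and snoRNA genes from 266 to 271, with overlapping groups. Of protein-coding genes 333 were at 0 in all vehicle libraries and above 0 in all bleomycin libraries, with a median of 0.033 FPKM and 279 of them under 0.1 FPKM. The reverse was true of 2 genes. The gained genes had a median span of 29.6 kb from first to last exon, against 7.70 kb for all 6489 protein-coding genes at 0 in every vehicle library. All protein-coding genes had a median span of 17.4 kb. The gained genes also had more exon sequence, with a median of 3918 bases against 1973 bases for the 6489 genes. The part of exon length in their detection was not tested.

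Families normally silent in cartilage took part in this gain, as did protein-coding genes at large. Olfactory and vomeronasal receptor genes, which are expressed in sensory neurons of the nose, number 1455 in the files. Above 0 were 20, 27 and 21 of them in vehicle libraries 1, 2 and 3 and 73, 94 and 85 in bleomycin libraries 1, 2 and 3. Of 70 defensin genes, of epithelial defence, 1, 1 and 2 against 7, 6 and 3 were above 0. For both families the groups lay apart and p was 0.1 in the exact permutation test. The same held for all 21961 protein-coding genes, of which a mean of 14580 with vehicle and 15959 with bleomycin were above 0. The receptor genes went from a mean of 22.7 to 84 and the defensin genes from 1.33 to 5.33, so most members stayed at 0. Whether these families gained more or less than other undetected genes was not tested. These families were chosen after the values were seen. The libraries of cells given bleomycin and then ST045849 had no part in the choice and, at estimated depths of 0.968, 1.00 and 0.934 relative to vehicle library 1, had 56, 79 and 68 olfactory and vomeronasal receptor genes and 22260, 22480 and 21265 genes in all above 0, each more than any vehicle library. Defensin genes numbered 2, 4 and 4 there and touched the vehicle range. The vehicle libraries to which these are compared did take part in the choice, so the comparison is not independent of it. The source of these faint signals, and the part of depth in them, was not tested.

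**Figure D5:**
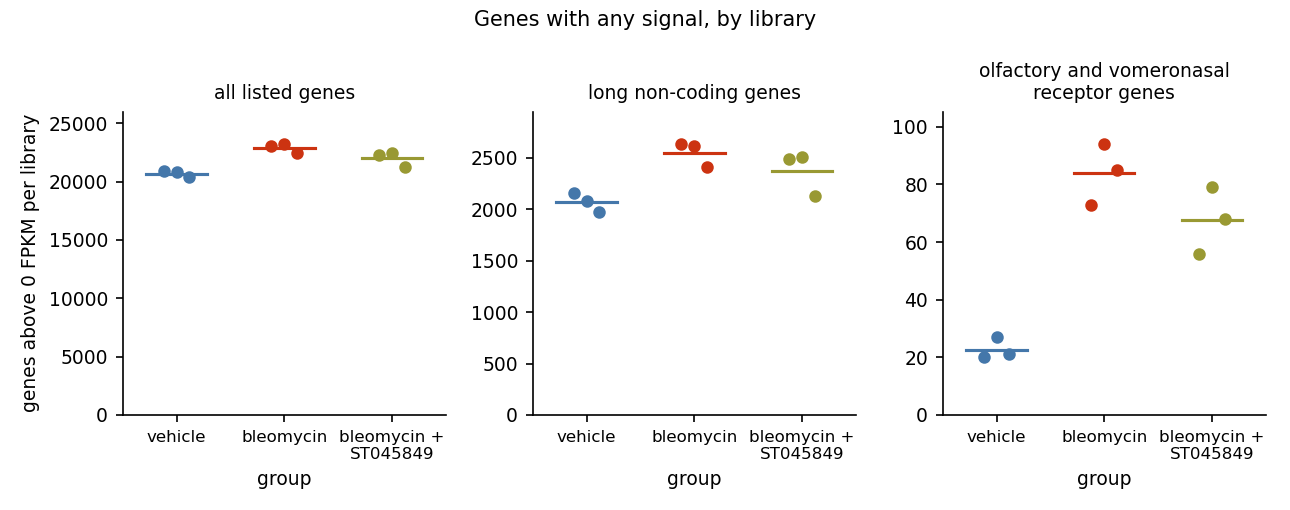
Number of genes above 0 FPKM per library (points, with group means as bars) for all listed genes, long non-coding genes, and olfactory and vomeronasal receptor genes, in vehicle, bleomycin and bleomycin plus ST045849 libraries; each vertical axis starts at 0. The receptor genes above 0 number 20 to 27 in the vehicle libraries, 73 to 94 in the bleomycin libraries and 56 to 79 where ST045849 followed.

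Long genes were higher with bleomycin than short ones on balance. When tested genes were divided by genomic span into 5 classes of equal number, the median log2 change was 0.00 in the shortest class (up to 6.73 kb), 0.07, 0.10 and 0.13 in the next classes and 0.18 in the longest (from 65.8 kb). After median-of-ratios scaling it went from -0.12 to 0.06, so the order held while the sign of the short genes depended on the scaling. With the trend on exon length removed from each library the medians were 0.06 in the shortest and 0.15 in the longest class. Risen genes did not gather at one end, with 98, 109, 93, 92 and 115 in the classes from short to long. Risen and fallen genes had median spans of 22.9 and 17.0 kb, against 22.2 kb for all tested genes. These medians describe the 6 libraries and were not tested.

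Markers of other cells were followed because bulk RNA mixes all cells of a culture. Of 10 macrophage markers 3 were tested and all 3 rose: Lyz2 from 1.65, 1.22 and 0.711 FPKM to 3.41, 3.49 and 3.32 FPKM, Cd68 from 1.93, 0.628 and 1.05 FPKM to 3.33, 5.28 and 5.35 FPKM, and Cd14 from 2.13, 1.20 and 1.27 FPKM to 4.08, 3.80 and 2.70 FPKM (adjusted p = 0.0144, 0.0283 and 0.0375). Leaving out vehicle library 2 or 3 or a bleomycin library ended the calls of Lyz2 and Cd14, and leaving out library 2 or 3 of either group ended that of Cd68 (adjusted p up to 0.0771, 0.162 and 0.119). Cd14 and Cd68 were also lost after quantile normalization (0.104 and 0.0587) and without the filter on low values (0.0895 and 0.09). The defining genes Tyrobp, C1qa, C1qb and C1qc were at 0 in all 6 libraries, and the list summed to 3.05 to 5.75 FPKM with vehicle and 10.9 to 12.6 FPKM with bleomycin. Osteoblast markers summed to 9.81 to 33.3 FPKM with vehicle and 39.6 to 105.7 FPKM with bleomycin, with Bglap and Bglap2 risen among 5 tested. Smooth muscle or pericyte markers summed to 78.4 to 102.9 FPKM and 55.5 to 60.3 FPKM, lower although Notch3 among them rose, and osteoclast markers to 13 to 25.5 and 14.8 to 23.2 FPKM. The part of these cell types in the changes above was not tested.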

How the data were processed

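Poly(A) RNA of 9 libraries in 3 groups of 3 was used. A stranded mRNA kit was used, per the labels' protocols. The submitters' processing notes list Trimmomatic, STAR and the GRCm38 build, without versions. The authors deposited FPKM per gene. The sources used here do not give the counting program, annotation, denominator or use of strand. Whole reads could not be recovered from them: 25.2 to 27.6% of the low values fell within 0.02 of a whole step.

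A model of log2(FPKM + 1) in the 9 libraries was fitted with limma 3.58.1 in R 4.3.3 as 3 groups, with variances that follow the mean (6 residual and 4.979 prior degrees of freedom), and adjusted by Benjamini-Hochberg. Libraries of a group correlated at 0.959 to 0.978 (vehicle) and 0.970 to 0.974 (bleomycin). In simulated data of 12075 genes, 100 were changed 2-fold and 100 were changed 4-fold. Of these, 40% and 91% were recovered, and 11 further calls were false. The simulated spread was independent between genes, which need not hold in the libraries. Positions, exon overlap and gene classes came from GENCODE vM21, which held 12071 of the tested genes. Alternatives were pseudocounts of 0.1 and 0.5, other filters, scalings, variance models, samples in the fit, a replicate block, and leaving out each library.

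The members and gene lists were chosen with earlier results of these data known. Genes were named by rule: the 12 largest log2 rises and falls and the 8 largest in FPKM among called genes with groups apart, up to 2 risen and 2 fallen genes per list (or its highest member where none was called), up to 8 genes near 0 in one group, the 8 largest uncalled changes, and Cdkn1a, Mki67, Lmnb1, Col2a1, Acan and Sox9. Members of the 5 added lists, Ccnd1, Rgp1 and the marker genes named with values were chosen after their values were seen. Some genes that the rule would name are not reported here.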

Additional observations from a re-analysis of the deposited data

How the results depend on the processing

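Without the filter on low values, 28411 genes were tested and 532 called, with 298 of them among the 592. Of the 70 called genes named in the text 21 were then lost, among them Penk (adjusted p = 0.0671) and Isg15 (0.0508). As TPM, Meg3 and Papss2 were lost (0.0536 and 0.0709) and Rara passed (0.0422). Over all settings that kept every library, the named genes stayed on their side of the threshold in 1140 fits, lost the call in 52 and gained it in 37. When 1 library was left out these numbers were 665, 134 and 6. A mean of at least 5 FPKM left 261 calls (216 up, 45 down) among 7958 genes. The fit of the 6 libraries alone called 984 genes (834 up, 150 down), array weights 1878 (1517 up, 361 down), and a change of at least 2-fold left 347 (304 up, 43 down). Fallen genes numbered 140 after median-of-ratios scaling and 168 after quantile normalization. Leaving out 1 of the 9 libraries gave 198 to 793 calls, 166 to 671 up and 24 to 122 down. At 0.1 FPKM or more bleomycin libraries held 860 more genes than vehicle libraries on average, against 418 more at 1 FPKM. The difference in the share of the FPKM sum held by the 100 highest genes (-2.09 percentage points) ranged from -2.93 to -0.908 percentage points when 1 library was left out. Across the named genes and these settings every direction held except for 2 uncalled genes. Rgp1 went to -0.12 after median-of-ratios scaling, -0.10 after quantile normalization and -0.016 with the length trend removed, and ranged from -0.057 to 0.17 when 1 library was left out, negative without vehicle library 1 or 3 or bleomycin library 1. Ugdh ranged from -0.25 to 0.18 when 1 library was left out, positive without bleomycin library 1 (0.18) and vehicle library 3 (0.11). The causes were not tested. Precision is limited by 3 libraries per group and by an unknown number of reads.

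The labels do not say that equal replicate numbers mark a shared culture, and deviations of equal numbers correlated at -0.078, -0.028 and 0.55, so the numbers were not taken to pair the samples. Library 3 alone correlated best with its own number. The Y-linked gene Eif2s3y, however, followed the number, at 19.8, 5.53 and 11.2 FPKM in vehicle libraries 1, 2 and 3 and 16.9, 4.52 and 11 FPKM in bleomycin libraries 1, 2 and 3, and Xist was lowest in library 1 of both groups, so a shared source is possible. With a replicate block 705 genes were called in the 9 libraries (608 up, 97 down) and 788 in the 6 (672 up, 116 down). Of the named genes Ibsp, Srgn and Elovl6 gained a call with the block in the 9 libraries (adjusted p = 0.00257, 0.0108 and 0.0371) and Scd1 lost it (0.0696). In the 6 libraries with the block Ibsp, Srgn, Elovl6 and Acan passed (0.0127, 0.0284, 0.0477 and 0.0455), and Cdkn1a, Cd68 and Meg3 did not (0.0513, 0.0536 and 0.0823).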
